A study of Mus musculus with 36 samples.

Results

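The genes described here are 8 transcripts of liver sugar sensing and glycolysis, *Gckr*, *Mlxipl*, *Pklr*, *Khk*, *Pfkfb1*, *Pfkfb3*, *Pfkl* and *Txnip*, found by symbol among the 38283 genes of the count table. Each symbol matched 1 row, and all 8 were among the 13945 genes with enough counts to be tested. Liver RNA was sequenced from 36 male mice on a C57Bl/6J background, all 16 weeks old and all kept on chow. Wild-type mice were compared with mice carrying the PIK3R1(Y657X) allele, written WT/Y657* and called mutants below, which according to the study's text are heterozygous for a knock-in of a premature stop in the insulin signalling subunit p85α, present in every tissue and not only in the liver. Each genotype was sampled fed, after a 16 h fast, and after a 16 h fast followed by 6 h of refeeding with chow, with 6 mice in each of the 6 groups. Total counts ran from 8839488 to 19542775 per mouse with a median of 13596665.5, and the ranges of the 6 groups overlapped. The *Pik3r1* transcript itself was not called different between genotypes in any state (adjusted p = 0.886 fed, 0.807 fasted and 0.423 refed), and counts of a gene do not show the allele, so they do not check the genotype labels. All 7 hepatocyte markers examined were present in every group, with a summed level between 54565 and 97130 counts per 1000000 counts of the library (CPM, with libraries scaled by TMM).

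In the liver, glucose is phosphorylated on entry and passes through glycolysis to pyruvate, and fructose joins the same route lower down after phosphorylation by ketohexokinase. Carbohydrate response element binding protein (ChREBP, encoded by *Mlxipl*) is a transcription factor that is active when sugar phosphates accumulate and that, with its partner MLX, binds carbohydrate response elements, which are pairs of E-box-like motifs. *Pklr*, the liver pyruvate kinase gene, is the classical carrier of such an element. Insulin and feeding favour this programme, and glucagon and fasting oppose it.

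The start-site sequences of 3 members are shown because *Pklr* and *Txnip* carry a pair of such motifs and *Khk* carries a perfect E box. They are RefSeq sequences of build GRCm38.p6, each from 250 bases before to 50 bases after an annotated start, read 5′ to 3′ on the gene's own strand, and capitals mark the matches. The *Pklr* sequence is the downstream of its 2 annotated starts, at chr3:89136373-89136672 on the plus strand. The *Khk* sequence is chr5:30921309-30921608 and the *Txnip* sequence chr3:96557707-96558006, both on the plus strand.
Pklr: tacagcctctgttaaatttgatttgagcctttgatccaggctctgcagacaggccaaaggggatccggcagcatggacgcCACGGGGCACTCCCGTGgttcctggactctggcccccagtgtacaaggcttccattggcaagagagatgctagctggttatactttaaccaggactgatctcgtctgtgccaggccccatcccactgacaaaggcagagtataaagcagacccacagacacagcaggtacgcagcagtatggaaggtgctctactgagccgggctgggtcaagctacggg
Khk: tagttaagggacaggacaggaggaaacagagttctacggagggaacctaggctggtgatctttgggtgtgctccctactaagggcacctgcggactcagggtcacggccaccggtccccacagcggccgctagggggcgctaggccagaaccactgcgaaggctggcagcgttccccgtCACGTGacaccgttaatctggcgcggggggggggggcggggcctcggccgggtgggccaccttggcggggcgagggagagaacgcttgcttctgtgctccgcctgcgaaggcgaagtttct
Txnip: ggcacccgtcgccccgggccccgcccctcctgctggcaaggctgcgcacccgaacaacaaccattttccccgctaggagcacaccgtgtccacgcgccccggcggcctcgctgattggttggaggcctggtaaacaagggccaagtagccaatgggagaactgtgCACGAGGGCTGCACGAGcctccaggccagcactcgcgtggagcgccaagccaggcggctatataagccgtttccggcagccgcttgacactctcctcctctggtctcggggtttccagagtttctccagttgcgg
The loose form of the element, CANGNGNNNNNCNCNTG, was searched on both strands in 32817 start-site sequences of the same length and was present in 0.558% of them. Of the 14 sequences that RefSeq gives for the 8 members, only the downstream *Pklr* start held it, as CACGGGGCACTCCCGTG from 170 to 154 bases before the start. The same letters also met the strict form, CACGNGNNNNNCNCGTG, which was present in 0.0457% of all sequences. The *Txnip* sequence holds 2 motifs in the same orientation, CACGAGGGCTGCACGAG, from 85 to 69 bases before the start. That form, CACGAGNNNNNCACGAG, was searched for after the *Txnip* sequence had been read, and no other of the 32817 sequences held it. The E box CACGTG was present in 7.15% of all sequences and in those of *Khk* (71 to 66 bases before the start), *Mlxipl* (98 to 93 bases before its upstream start) and *Pfkfb3* (53 to 48 bases before its downstream start). These matches describe letters only, and the data hold no measure of binding.

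Set side by side per kilobase of annotated exon, the 8 transcripts covered a wide range in fed wild-type liver. *Khk* was at 166 ± 39.8 CPM per kilobase (mean ± SD, n = 6), followed by *Pklr* at 60.2 ± 33.2, *Txnip* at 35.7 ± 15.9, *Gckr* at 26.5 ± 2.64 and *Mlxipl* at 23.1 ± 5.33. *Pfkfb1* (7.70 ± 1.18), *Pfkl* (5.84 ± 0.278) and *Pfkfb3* (2.75 ± 1.75) were the lowest. The spread between mice of this group differed as much as the level, from a coefficient of variation of 4.77% for *Pfkl* to 55.1% for *Pklr* and 63.9% for *Pfkfb3*. All other levels below are CPM of 1 gene across groups, and since the tissue is bulk liver, fewer cells of a type and less RNA per cell cannot be told apart.

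**Figure D1:**
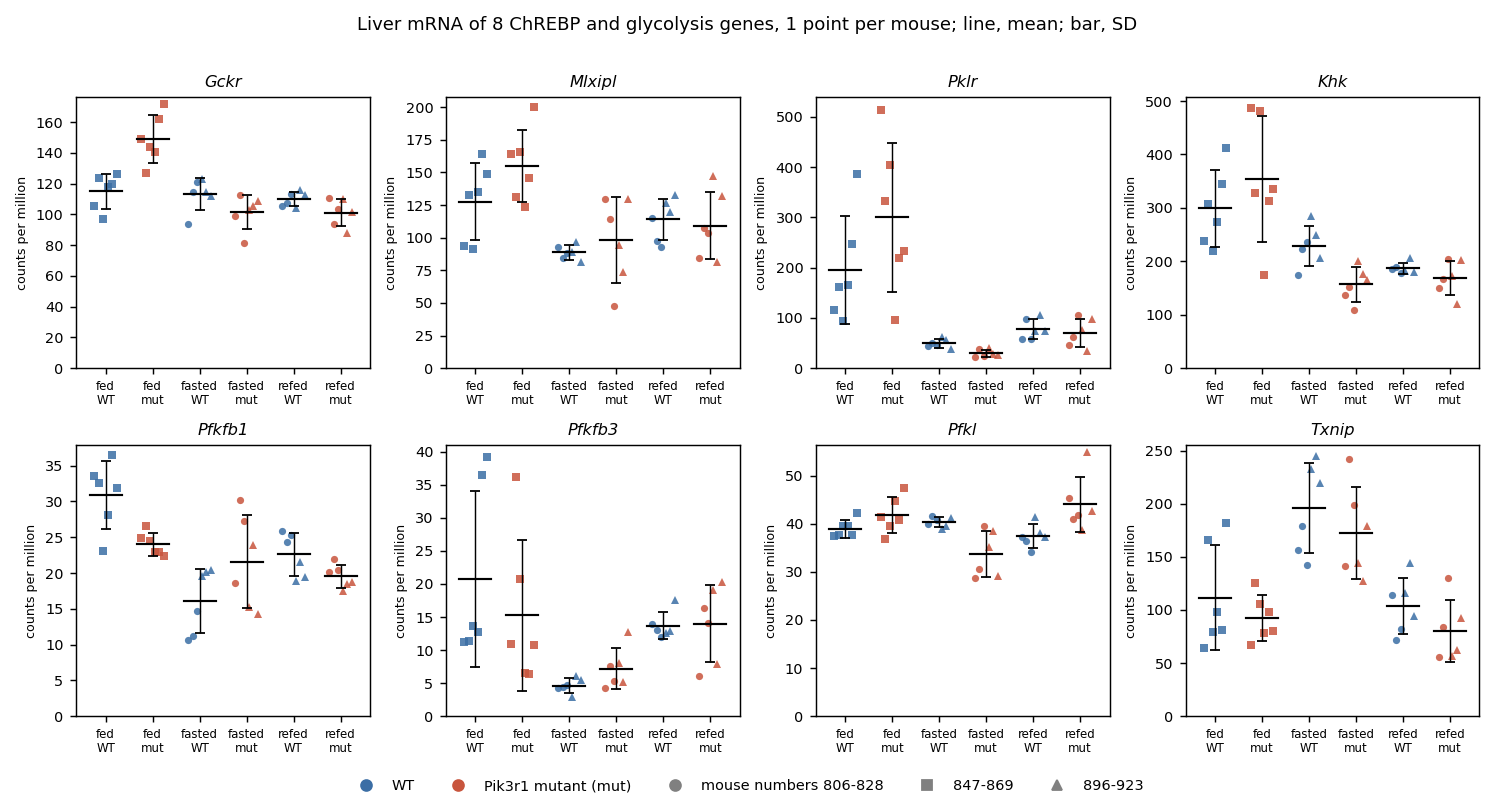
CPM (vertical axes, linear from 0) of the 8 genes in the 6 groups (horizontal axes), 1 point per mouse, with the mean as a line and the SD as a bar, and the symbol giving the mouse number range. *Pklr* falls from 94.0 to 514 CPM over all fed mice to 23.2 to 61.4 over all fasted mice, while *Pfkl* stays between 28.8 and 54.9 in all 36.

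*Pklr*, which makes the enzyme of the last step of glycolysis, had the largest fall of the 8 on fasting in mutants and, after *Pfkfb3*, the next largest in wild-type mice. It spanned 94.0 to 386 CPM in fed wild-type mice (median 163) and 37.2 to 61.4 (median 48.5) after the fast. In mutants it spanned 96.4 to 514 (median 283) when fed and 23.2 to 39.6 (median 27.6) when fasted. Fed and fasted mice did not overlap in either genotype, as for 17.6% of all genes tested in wild-type mice and 1608 of 13945 in mutants. The fed mice of each genotype differed among themselves over a several-fold range, and this range split by mouse number. The fed mice WT_856 to WT_860, which hold both genotypes, were at 247 to 514 CPM. All other fed mice were at 94.0 to 232 CPM, and the cause of this split was not tested. The fall on fasting was 3.96-fold in wild-type mice (log2 fold change -1.98, standard error, SE, 0.33, adjusted p = 2.54e-05 by edgeR with Benjamini-Hochberg adjustment over all genes tested, as for every adjusted p here) and 10.02-fold in mutants (-3.33, SE 0.35, adjusted p = 1.12e-08). The difference of these responses was -1.34 on the log2 scale (95% interval -2.29 to -0.40) and did not pass the threshold (adjusted p = 0.0935). The difference is made of a higher fed mean in the mutants (0.62, SE 0.32, adjusted p = 0.308) and a lower fasted mean (-0.72, SE 0.33, adjusted p = 0.158), neither of which passed alone in the fit to all 36 mice. In a fit to the 12 fasted mice alone the lower fasted value passed (-0.70, adjusted p = 0.00855). After refeeding, *Pklr* spanned 58.5 to 106 CPM (median 74.3) in wild-type and 33.2 to 105 (median 68.8) in mutants. The rise from fasting passed the test in mutants (2.33-fold, log2 1.22, SE 0.33, adjusted p = 0.00530) and not in wild-type mice (0.67, SE 0.33, adjusted p = 0.123), and the difference between the 2 responses was 0.55 (95% interval -0.40 to 1.499, adjusted p = 0.627). At 6 h of refeeding it was below the fed level, by 2.48-fold in wild-type mice (adjusted p = 0.00296) and 4.29-fold in mutants (adjusted p = 2.05e-05). Fed and refed mice also differ in mouse number range, as described below for *Pfkfb1*.

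*Khk*, which encodes ketohexokinase, varied with *Pklr* from mouse to mouse (Pearson's r of log2 CPM 0.886 over 36 mice after the group means were removed, a description). Removing group means leaves the split of fed mice by number in this r. For *Khk* the fed mice WT_856 to WT_860 were at 328 to 488 CPM and the other fed mice at 174 to 335. Fed mice spanned 219 to 412 CPM (median 290) in the wild-type group and 174 to 488 (median 332) in the mutant group. Fasted mice spanned 174 to 285 (median 229) and 109 to 201 (median 159), and refed mice 179 to 207 (median 184) and 121 to 205 (median 170). In the mutant groups 4 of 6 fasted mice lay below every fed mouse, and in the wild-type groups 2 of 6. The fall on fasting was 2.25-fold in mutants (log2 -1.17, SE 0.18, adjusted p = 5.37e-06), and the wild-type value was -0.39 (SE 0.18, adjusted p = 0.0974). The difference between them was -0.78 (95% interval -1.30 to -0.27, adjusted p = 0.0705). Fasted mutants were 1.46-fold lower than fasted wild-type mice (-0.54, SE 0.18, adjusted p = 0.0410), and 4 of the 6 lay below all wild-type mice. This call was lost without any 1 of the mice WT_824, WT_825, WT_918, WT_919, MT_806, MT_826, MT_827 and MT_923 (named by genotype and number as in the labels), and the value over all mice left out in turn ran from -0.63 to -0.46. Refeeding did not move *Khk* past the threshold in either genotype (-0.29, adjusted p = 0.240, and 0.11, adjusted p = 0.673), and refed mice stayed 1.60-fold (wild-type, adjusted p = 0.00478) and 2.08-fold (mutant, adjusted p = 4.37e-05) below fed mice.

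*Gckr* encodes the regulatory protein that binds and restrains glucokinase in the hepatocyte nucleus. Its 6 fed mutants spanned 127 to 172 CPM (median 147), and every other group lay lower. Fed wild-type mice spanned 97.1 to 126 (median 119), fasted wild-type mice 93.5 to 123 (median 115) and refed wild-type mice 104 to 116 (median 110). Fasted mutants spanned 81.4 to 113 (median 104) and refed mutants 87.8 to 110 (median 103). The fed genotype groups did not overlap (as for 1.07% of all genes tested). Neither did fed and fasted mutants (as for 1608 of 13945 genes) or fed and refed mutants (as for 9.11%). Neighbours in the order of the other 5 group means all overlapped. In fed mice *Gckr* was 1.30-fold higher in mutants (log2 0.37, SE 0.079, adjusted p = 0.00968). It fell 1.47-fold on fasting in mutants (-0.55, SE 0.079, adjusted p = 8.73e-07) against -0.03 in wild-type mice (SE 0.079, adjusted p = 0.844), and this difference passed the test (-0.53, SE 0.11, adjusted p = 0.00523). Refed mutants were 1.47-fold below fed mutants (-0.56, SE 0.079, adjusted p = 1.59e-06), and the fasted and refed genotype values were -0.15 (adjusted p = 0.207) and -0.12 (adjusted p = 0.650). The fed call was lost when the model was fitted to the 12 fed mice alone (0.37, adjusted p = 0.0811), and the difference of fasting responses was kept in every other setting run. Among the 5 fed mice with neighbouring numbers, WT_856 to WT_860, the 3 mutants lay above the 2 wild-type mice with a mean difference of 0.18 on the log2 scale. The other fed wild-type mice are WT_847 to WT_850, and the other fed mutants MT_866 to MT_869. Genotype and mouse number are therefore partly confounded in the fed value and in the difference of fasting responses.

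Markers of other liver cells also differed between the fed groups. The summed level of 5 stellate cell markers was 256 to 364 CPM in fed wild-type and 355 to 495 in fed mutants, with 1 of the 5 called higher. The sum of 6 macrophage markers was 167 to 227 and 152 to 513 CPM, and the sum of 7 lymphocyte markers 1.39 to 2.90 and 2.63 to 11.7 with 2 of 5 tested called higher. The hepatocyte marker sum was 77153 to 91811 and 54565 to 88975, and none of these markers was at 0 in all mice of either group. The part of these cells in the fed *Gckr* value was not tested.

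*Mlxipl*, the ChREBP gene, moved less than its target *Pklr*. It spanned 91.2 to 164 CPM (median 134) in fed and 81.6 to 96.4 (median 88.6) in fasted wild-type mice. In mutants it spanned 124 to 200 (median 155) fed and 47.6 to 130 (median 105) fasted. The fasted wild-type mice formed the tightest group, with a coefficient of variation of 6.15%, and the fasted mutants the widest, at 33.4%. It fell on fasting in both genotypes, by 0.52 on the log2 scale in wild-type mice (SE 0.18, adjusted p = 0.0272) and by 0.66 in mutants (SE 0.18, adjusted p = 0.00568), and the responses differed by -0.13 (95% interval -0.66 to 0.39). The wild-type call was lost without any 1 of the mice WT_856, WT_860 and WT_920, with values as near to 0 as -0.44. Refed mice spanned 92.6 to 132 (median 117) and 81.6 to 147 (median 105) and did not differ from fasted mice past the threshold (0.36, adjusted p = 0.136, and 0.15, adjusted p = 0.562). Refed mutants were still below fed mutants (-0.50, SE 0.18, adjusted p = 0.0386). The genotype values were 0.28 fed, 0.15 fasted and -0.06 refed, and none of them passed by edgeR at an unadjusted p under 0.05.

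*Pfkl*, the liver form of phosphofructokinase, makes the committed step of glycolysis. Its level was nearly flat in wild-type mice, at 37.4 to 42.2 CPM fed (median 38.5), 38.8 to 41.5 fasted (median 40.4) and 34.1 to 41.5 refed (median 37.2). In mutants it was 36.7 to 47.4 fed (median 41.1), 28.8 to 39.6 fasted (median 32.8) and 38.6 to 54.9 refed (median 42.2). Of the 6 fasted mutants, 5 lay below all fasted wild-type mice. The fall on fasting (-0.31, SE 0.079, adjusted p = 0.00210) and the rise on refeeding (0.39, SE 0.079, adjusted p = 0.000189) passed the test in mutants. The wild-type values were 0.05 (adjusted p = 0.688) and -0.10 (adjusted p = 0.335). The difference between genotypes passed for refeeding (0.49, SE 0.11, adjusted p = 0.0147) and missed the threshold for fasting (-0.36, SE 0.11, adjusted p = 0.0541). Fasted mutants were 1.198-fold below fasted wild-type mice (-0.26, SE 0.079, adjusted p = 0.0239), a call that was lost without any 1 of the mice MT_806, MT_826 and MT_923, with library size alone (adjusted p = 0.0651) and in a fit to the 12 fasted mice alone (-0.24, adjusted p = 0.0633). Refed mutants were at 0.23 above wild-type mice, which did not pass (SE 0.078, adjusted p = 0.306).

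*Pfkfb1* and *Pfkfb3* encode bifunctional enzymes that make and remove fructose 2,6-bisphosphate, the activator of phosphofructokinase. *Pfkfb1*, the form typical of hepatocytes, spanned 23.02 to 36.5 CPM (median 32.2) in fed and 10.7 to 20.4 (median 17.1) in fasted wild-type mice. In mutants it spanned 22.3 to 26.6 (median 23.7) fed and 14.3 to 30.2 (median 21.2) fasted. Fed and fasted mice did not overlap in the wild-type genotype (as for 17.6% of all genes tested) and overlapped widely in the other. The fall was 1.92-fold in wild-type mice (log2 -0.94, SE 0.16, adjusted p = 1.30e-05) and the mutant value was -0.16 (SE 0.15, adjusted p = 0.468), a difference that passed the test (0.79, SE 0.22, adjusted p = 0.0337). That call was lost without any 1 of the mice WT_807, WT_824, WT_825, WT_847, WT_848, WT_856, MT_826, MT_827, MT_868 and MT_869 (values over all mice left out from 0.67 to 0.88) and in fits with no filter or to the fed and fasted mice alone. Refed mice spanned 18.9 to 25.9 (median 23.004) in wild-type and 17.5 to 21.9 (median 19.5) in mutants, a rise from fasting of 0.49 in wild-type mice (SE 0.16, adjusted p = 0.0169) and a value of -0.14 in mutants (adjusted p = 0.535). The wild-type rise did not pass without WT_807 (0.39, adjusted p = 0.0581) or without WT_824 (0.40, adjusted p = 0.0573). Between genotypes the values were -0.37 fed (adjusted p = 0.191), 0.42 fasted (adjusted p = 0.0743) and -0.21 refed (adjusted p = 0.697).

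The *Pfkfb1* values in fasted mice split by the mouse number in the labels. The fasted and refed groups each hold 3 mice of a lower number range (MT_806 to WT_828) and 3 of an upper range (WT_896 to MT_923), while all fed mice lie between (WT_847 to MT_869). For every gene here, neither a fasting response nor a difference between refed and fed mice can therefore be told apart from the number range. Fasted wild-type mice of the lower range were at 10.7, 11.2 and 14.7 CPM and those of the upper range at 19.6, 20.1 and 20.4. The genotype difference in fasted mice was 1.04 on the log2 scale in the lower range and -0.21 in the upper range, and the rise on refeeding in wild-type mice was 1.06 and -0.004. The plot of fasted and refed mice by number range shows that the genotype difference of *Pfkfb1* in fasted mice has opposite signs in the 2 ranges. With the range as a covariate the pooled refeeding value was 0.47 (adjusted p = 0.0216). Within the fed mice, the lowest numbers are all wild-type and the highest all mutant. Fed genotype values of every gene here are therefore partly confounded with mouse number. Among WT_856 to WT_860, which hold both genotypes, the log2 differences of means were 0.18 (*Gckr*), -0.03 (*Mlxipl*), 0.41 (*Pklr*) and 0.18 (*Khk*). Those of the other members were -0.43 (*Pfkfb1*), -0.90 (*Pfkfb3*), -0.02 (*Pfkl*) and -0.33 (*Txnip*).

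**Figure D2:**
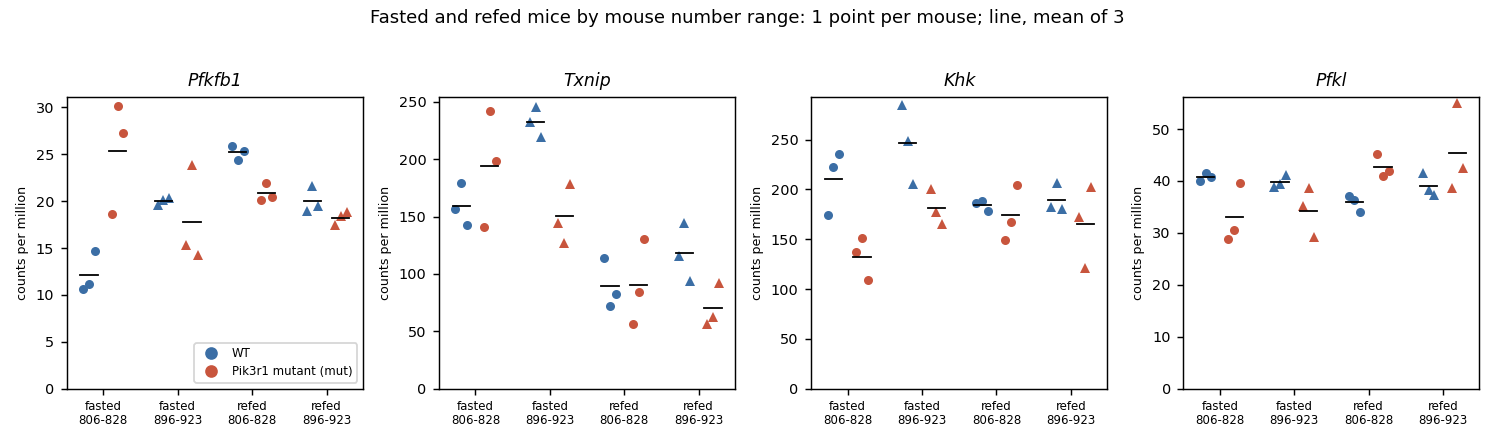
CPM (vertical axes, linear from 0) of 4 genes in fasted and refed mice, split by mouse number range (horizontal axes), 1 point per mouse, the line marking the mean of 3 mice. In the lower range fasted wild-type mice lie at 10.7 to 14.7 for *Pfkfb1* and all 3 fasted mutants above them, which is not so in the upper range. The fasted genotype groups of *Khk* and *Pfkl* do not overlap within a range, at 3 mice each, but do overlap over both ranges. The *Pfkl* gap is narrow, with a mutant at 39.6 below a wild-type mouse at 39.99 (lower range) and 38.6 below 38.8 (upper range). How many of all genes separate within a range was not counted.

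*Pfkfb3* is the more widely expressed form and was the lowest of the 8 per kilobase. It spanned 11.2 to 39.1 CPM (median 13.2) in fed, 2.85 to 6.08 (median 4.57) in fasted and 11.95 to 17.6 (median 12.97) in refed wild-type mice. In mutants it spanned 6.38 to 36.1 (median 10.9) fed, 4.23 to 12.7 (median 6.40) fasted and 6.10 to 20.3 (median 15.2) refed. Wild-type fasted mice lay below all fed and all refed wild-type mice (no overlap, as for 17.6% and 16.9% of all genes tested), and the mutant groups overlapped. It fell 4.47-fold on fasting in wild-type mice (log2 -2.16, SE 0.42, adjusted p = 0.000160) and rose 2.94-fold on refeeding (1.56, SE 0.42, adjusted p = 0.00506). In mutants the fall on fasting was 2.10-fold (-1.07, SE 0.40, adjusted p = 0.0400) and the refeeding value was 0.96 (SE 0.40, adjusted p = 0.0701). The fall in mutants rested on the fed mouse MT_858, at 36.1 CPM, without which it was -0.63 (adjusted p = 0.216). It was also lost without any 1 of MT_859, MT_806, MT_826, MT_827, MT_921 and MT_922, with limma-voom (-0.84, adjusted p = 0.125), with no filter on low counts (adjusted p = 0.0647) and in a fit to the fed and fasted mutants alone (adjusted p = 0.109). The refeeding value in mutants passed with DESeq2 (0.95, adjusted p = 0.0460), with the likelihood ratio test (0.96, adjusted p = 0.0444) and with library size alone (1.05, adjusted p = 0.0438). The responses of the genotypes differed by 1.09 for fasting (95% interval -0.09 to 2.27) and -0.60 for refeeding (-1.79 to 0.59). No genotype value passed (-0.47 fed, 0.62 fasted and 0.02 refed).

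*Txnip* encodes thioredoxin-interacting protein, a brake on glucose uptake whose gene is a known ChREBP target. It moved opposite to *Pklr*. It spanned 63.8 to 182 CPM (median 89.5) in fed, 142 to 245 (median 199) in fasted and 72.0 to 144 (median 104) in refed wild-type mice. In mutants it spanned 67.0 to 126 (median 89.1), 127 to 242 (median 162) and 56.1 to 130 (median 73.1). All fasted mutants lay above all fed ones (no overlap, as for 1608 of 13945 genes tested), and the wild-type groups overlapped. The rise on fasting was 0.81 in wild-type mice (1.75-fold, SE 0.25, adjusted p = 0.0109) and 0.90 in mutants (1.86-fold, SE 0.25, adjusted p = 0.00525). It fell on refeeding by 0.91 (SE 0.25, adjusted p = 0.00472) and by 1.10 (SE 0.25, adjusted p = 0.000863). The genotype responses differed by 0.08 for fasting (95% interval -0.62 to 0.79) and -0.19 for refeeding (-0.89 to 0.52). The genotype values of -0.27 fed, -0.19 fasted and -0.37 refed did not pass. The fasted value was 0.26 in the lower and -0.64 in the upper number range.

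In fed mice, where the genotypes were compared without a fast, 1 of the 8 genes was called, *Gckr*, against 2.37% of all genes tested. In fasted mice 2 were called, *Khk* and *Pfkl*, both lower in mutants, against 13.1% of all genes and 6.63% called lower. No member was called there without MT_806 or without MT_826, and in a fit to the 12 fasted mice alone the 2 genes called were *Pklr* and *Khk*. Within the number ranges *Khk* differed by -0.67 and -0.43 and *Pfkl* by -0.32 and -0.22. In refed mice 0 were called by edgeR, DESeq2 or limma-voom, against 0.0287% of all genes, and 1 of the 8 (*Pfkl*) had an unadjusted p under 0.05. The median genotype value of the 8 was 0.17 fed, -0.17 fasted and -0.13 refed on the log2 scale, against 0.01, 0.002 and 0.006 over all genes tested. In fasted mice, the stellate marker sum was 311 to 373 CPM in wild-type and 339 to 488 in mutants with 1 of 5 called higher. The endothelial marker sum was 326 to 375 and 301 to 375 CPM with 1 of 6 called higher, and the part of these cells was not tested.

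**Figure D3:**
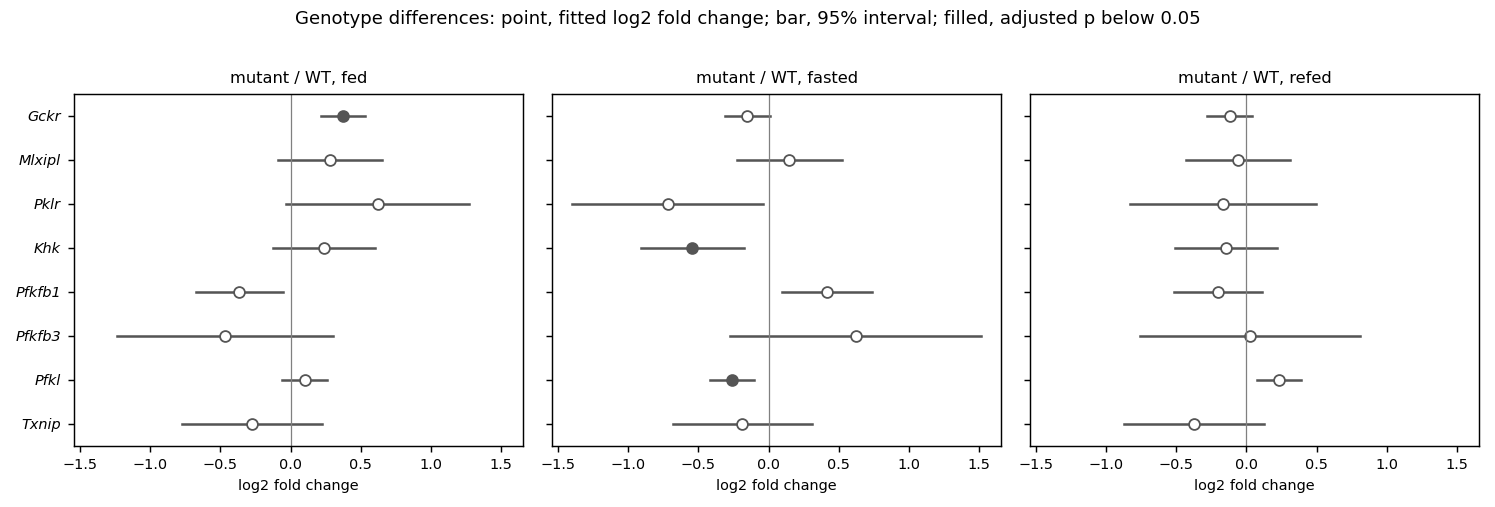
Fitted log2 fold change of mutant against wild-type mice (horizontal axes) for the 8 genes (vertical axis) in the fed, fasted and refed state, with bars for the 95% interval and filled points for an adjusted p under 0.05. *Gckr* is filled in the fed state at 0.37, *Khk* and *Pfkl* in the fasted state at -0.54 and -0.26, and no point in the refed state.

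Fasting, which asks how the liver leaves the fed state, called 4 of the 8 genes lower in wild-type mice against 17.5% of all genes tested, and *Txnip* higher against 14.5%. In mutants 6 were called lower against 17.7%, and *Txnip* higher against 15.2%. Markers of other cells moved with fasting too. In wild-type mice the endothelial marker sum was 238 to 317 CPM fed and 326 to 375 fasted, without overlap, with 3 of 6 called higher. The lymphocyte sum was 1.39 to 2.90 CPM fed and 3.18 to 6.17 fasted with 2 of 5 tested called higher, and of 7 hepatocyte markers 2 were called lower and 1 higher. In mutants 2 of 7 hepatocyte markers were called higher and 1 of 5 stellate markers lower, and the part of these cells in the fasting values was not tested. The difference of the fasting responses was called for 2 of the 8, *Gckr* and *Pfkfb1*, against 4.35% of all genes. That count was 5 with DESeq2, which added *Pklr*, *Khk* and *Pfkl*, and ran from 1 to 5 as single mice were left out, reaching 5 without WT_860 and 4 without MT_866 or without MT_921. Refeeding called *Pfkfb1* and *Pfkfb3* higher in wild-type mice against 16.5% of all genes, and *Txnip* lower against 13.7%. With the fasted and refed wild-type mice alone in the fit, *Mlxipl* and *Pklr* were added above and *Khk* below, for a count of 6. In mutants it called *Pklr* and *Pfkl* higher against 17.1%, and *Txnip* lower against 14.2%. The difference of the refeeding responses was called for *Pfkl* alone of the 8, against 2.06%. Cell markers moved on refeeding too, with 2 of 7 hepatocyte markers called lower in each genotype. Of 6 endothelial markers 2 were called lower in wild-type mice and 3 in mutants, and of 4 erythroid markers 1 and 2. Of 5 stellate markers 1 was called higher and 2 lower in wild-type mice, and 1 higher and 1 lower in mutants. Refed wild-type mice still differed from fed ones in 3 genes, *Pklr*, *Khk* and *Pfkfb1*, all lower, against 27.5% called and 14.3% called lower. Refed mutants differed in 4, *Gckr*, *Mlxipl*, *Pklr* and *Khk*, all lower, against 26.1% and 13.1%. The *Pfkfb1* call in wild-type mice was lost without WT_856, WT_896 or WT_901, and the *Mlxipl* call in mutants without any 1 of MT_810, MT_814, MT_817, MT_857, MT_859, MT_869 and MT_898. Between refed and fed wild-type mice 4 of 7 hepatocyte, 2 of 5 stellate, 2 of 5 cholangiocyte and 1 of 4 erythroid markers were called lower. There 1 of 6 macrophage and 1 of 6 endothelial markers were called higher. In mutants 1 of 7 hepatocyte, 2 of 6 endothelial, 2 of 5 stellate, 1 of 5 lymphocyte and 1 of 4 erythroid markers were lower. There 1 of 6 macrophage markers was higher, and the part of these cells was not tested. The fasting and refeeding comparisons share the fasted mice, so they are not independent of each other.

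**Figure D4:**
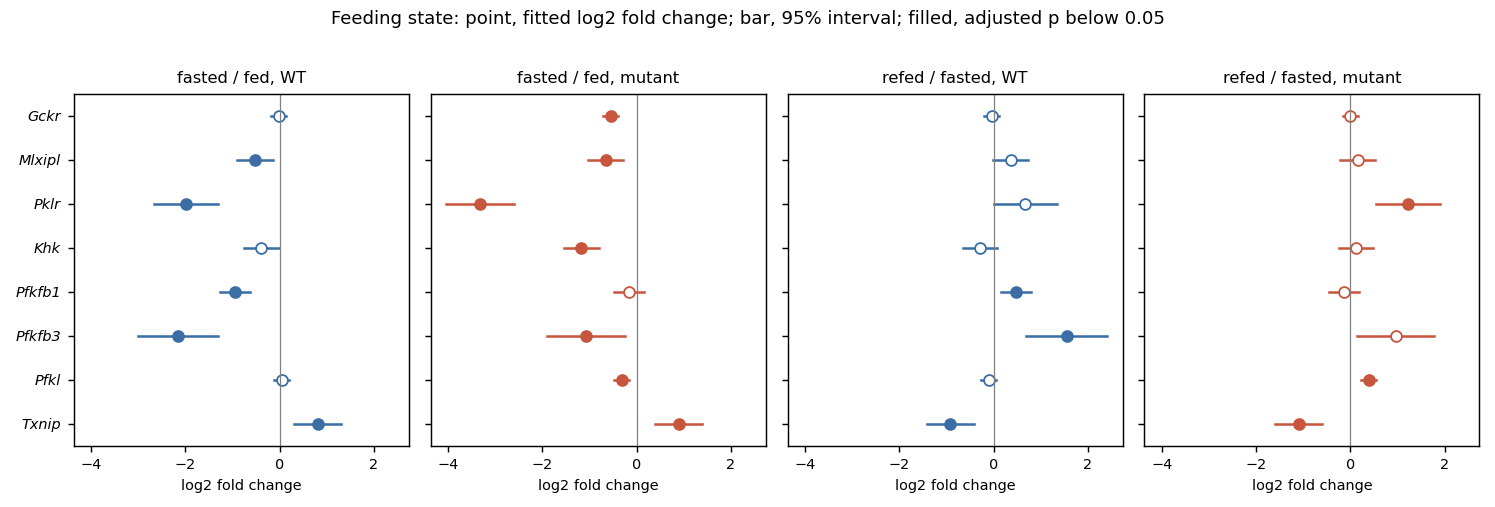
Fitted log2 fold change (horizontal axes) of the 8 genes (vertical axis) on fasting and on refeeding in wild-type and mutant mice, with bars for the 95% interval and filled points for an adjusted p under 0.05. *Pklr* reaches -1.98 on fasting in wild-type and -3.33 in mutants, and *Txnip* lies on the opposite side of 0 from *Pklr* in all 4 panels.

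In the GENCODE M21 annotation of GRCm38, whose gene IDs the count table uses, 3 of the 8 genes overlap a counted gene on the opposite strand, and the sources used here do not say whether counting used the strand. *Pklr* (chromosome 3, 89136142 to 89146784, plus strand) ends within *Hcn3* (89146074 to 89160196, minus strand), an ion channel gene. *Hcn3* counts followed those of *Pklr* over the 36 mice (Pearson's r of log2 CPM 0.988, a description), at a median of 27.8% to 32.1% of the *Pklr* count in each group, so the reads of the 2 genes cannot be told apart here. *Txnip* (chromosome 3, 96557957 to 96561883, plus strand) lies within *Gm15441*, a noncoding antisense gene, over all of its 3927 bases. *Gm15441* had 0 to 7 counts in the 12 fed mice and 44 to 523 in the 12 fasted mice, at a median of 5.88% of the *Txnip* count in fasted wild-type and 12.6% in fasted mutants. It was called higher on fasting in both genotypes (adjusted p = 1.13e-07 and 1.87e-09). *Pfkfb1* (chromosome X, 150588229 to 150643878, plus strand) shares 1640 bases with *Apex2*, a DNA repair gene, whose count was a median of 85.2% to 137% of that of *Pfkfb1* and whose genotype difference of fasting was -0.01 (adjusted p = 0.982). *Apex2* was called lower on fasting in wild-type mice (-0.43, adjusted p = 0.00182) and in mutants (-0.45, adjusted p = 0.00120). It was also lower in refed than in fed mice (-0.54, adjusted p = 0.000239, and -0.64, adjusted p = 2.00e-05). The other members are *Gckr* (chromosome 5, 31297443 to 31327314, plus strand), *Khk* (chromosome 5, 30921431 to 30931248, plus strand), *Mlxipl* (chromosome 5, 135089890 to 135138382, plus strand), *Pfkfb3* (chromosome 2, 11471433 to 11554077, minus strand) and *Pfkl* (chromosome 10, 77986947 to 78010083, minus strand), which overlap no gene of the count table.

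**Figure D5:**
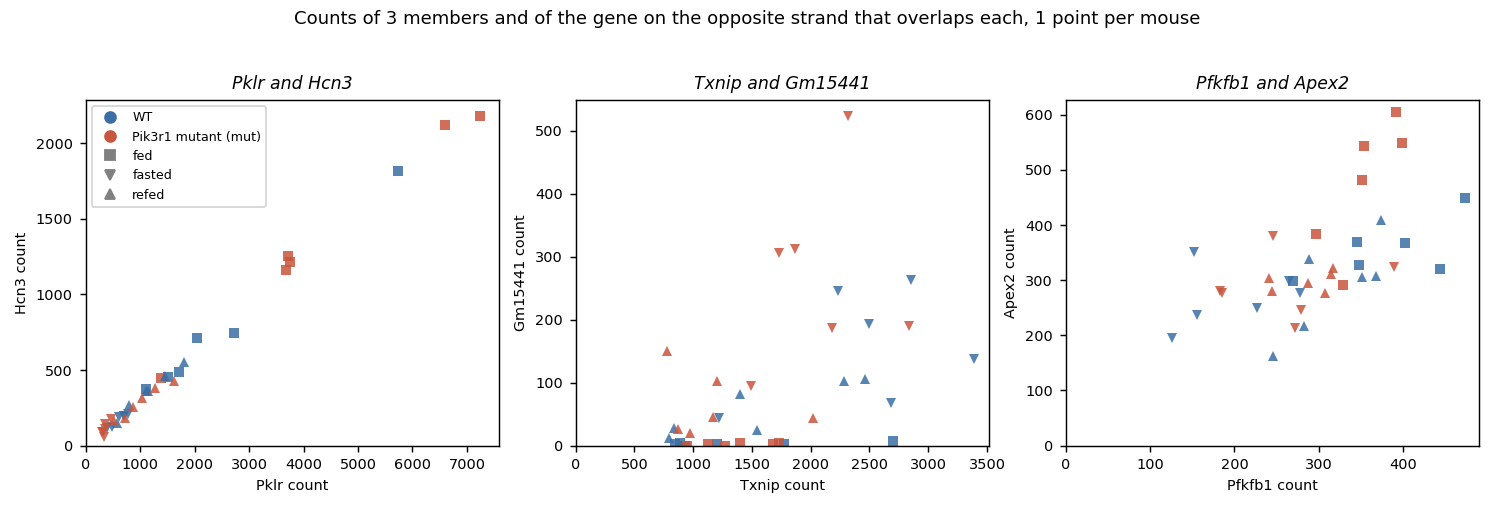
Count of the overlapping gene (vertical axes) against the count of the member (horizontal axes) for 3 pairs, 1 point per mouse, with colour for genotype and symbol for feeding state. *Hcn3* follows *Pklr* along a single line up to 2182 counts, *Gm15441* stays at 7 counts or fewer in fed mice at any *Txnip* count, and *Apex2* is spread over 163 to 605 counts.

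Other genes of the same routes were followed in 4 lists written by hand from general knowledge. Of 18 other glycolysis enzymes tested, fasting raised 3 and lowered 4 in wild-type mice, against 14.5% and 17.5% of all genes tested, and raised 3 and lowered 6 in mutants, against 15.2% and 17.7%. *Ldha*, which makes a subunit of lactate dehydrogenase, rose by 1.01 and 1.02 on the log2 scale (adjusted p = 7.42e-08 and 7.05e-08), and the enolase gene *Eno3* by 0.86 and 0.84 (adjusted p = 0.000720 and 0.000640). *Eno1* fell by 0.66 in mutants (adjusted p = 5.53e-05), and its responses differed between genotypes by -0.61 (adjusted p = 0.0343), the 1 gene of this list called for that difference. The median of the list was 0.04 in wild-type and -0.20 in mutants, against 0.01 and -0.008 over all genes tested. In fed mice *Hk3*, a hexokinase gene, was the 1 gene of this list called between genotypes, against 2.37% of all genes. It was higher in mutants (1.06, adjusted p = 0.0416), at 4.47 to 14.6 CPM against 2.91 to 6.31 in wild-type mice. The part in this value of other liver cells, whose markers differed between the fed groups, was not tested. No gene of this list was called between genotypes by edgeR in fasted mice, where 3 had an unadjusted p under 0.05.

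Of 5 enzymes around fructose 2,6-bisphosphate and the opposing step, fasting raised 2 and lowered 2 in wild-type mice and raised 2 and lowered 1 in mutants, against the same shares of all genes (14.5% and 17.5%, and 15.2% and 17.7%). *Pfkfb2*, another bifunctional enzyme gene, was 0.87 higher in fasted mutant than in fasted wild-type mice (SE 0.11, adjusted p = 4.80e-06), and it rose on fasting by 0.85 in mutants (adjusted p = 8.84e-08). Its difference of fasting responses was 1.202 (SE 0.15, adjusted p = 2.70e-05) and that of refeeding responses -0.83 (SE 0.15, adjusted p = 0.00378). *Fbp1*, which encodes the gluconeogenic fructose bisphosphatase, was 0.75 higher in fed mutants (SE 0.12, adjusted p = 0.00133). On fasting it rose by 0.52 in wild-type mice (adjusted p = 0.000975) and fell by 0.54 in mutants (adjusted p = 0.000700), a difference of -1.06 (SE 0.17, adjusted p = 0.000583). *Pfkfb2* and *Fbp1* were the 2 genes of the 5 called for the difference of fasting responses, against 4.35% of all genes.

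Among 9 genes of hexose transport and fructose handling, fasting called 4 in wild-type and 6 in mutants, all lower, against 17.5% and 17.7% of all genes called lower. *Tkfc*, which encodes the triokinase that follows ketohexokinase, fell by 0.93 in wild-type mice (adjusted p = 0.000211) and by 1.89 in mutants (adjusted p = 1.83e-09), and the responses differed by -0.97 (SE 0.26, adjusted p = 0.0286). For that difference *Glyctk*, also of this list, was called the other way (0.44, SE 0.13, adjusted p = 0.0432). These were the 1 lower and 1 higher of the 9, against 4.35% of all genes called. The glucose transporter gene *Slc2a2* was lower in fasted mutant than in fasted wild-type mice (-0.81, adjusted p = 0.0225), as were *Tkfc* (-0.64, adjusted p = 0.0202) and *Sord*, the sorbitol dehydrogenase gene (-0.59, adjusted p = 0.00139). In total 4 genes of this list were called between genotypes in fasted mice, all of them lower in mutants, against 6.63% of all genes called lower, with a list median of -0.28 against 0.002 over all genes. On refeeding 3 were called higher in wild-type and 4 in mutants, against 16.5% and 17.1% of all genes, among them *Tkfc* (0.65, adjusted p = 0.00743, and 1.31, adjusted p = 1.78e-06).

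Of 21 genes known as ChREBP partners or as responsive to it, many of which also respond to insulin through SREBP-1c, fasting lowered 10 and raised 4 in wild-type mice and lowered 11 and raised 3 in mutants. The shares of all genes called lower were 17.5% and 17.7%, and those called higher 14.5% and 15.2%. The list medians were -0.63 and -1.13, against 0.01 and -0.008 over all genes. *Mid1ip1*, a lipogenic cofactor gene, fell by 2.35 and 3.39 (adjusted p = 7.59e-10 and 1.83e-12), and *Acaca*, the acetyl-CoA carboxylase gene, by 1.94 and 2.18 (adjusted p = 8.56e-10 and 1.06e-10). *Mlx*, the partner of ChREBP, was lower in fed mutant than in fed wild-type mice (-0.39, SE 0.067, adjusted p = 0.00178). In fed mice *Mlx* was the 1 gene of the 21 called lower and *Pnpla3* the 1 called higher (2.25, SE 0.56, adjusted p = 0.0270), against 2.37% of all genes called. *Pnpla3* was low and its groups overlapped, at 0.41 to 4.24 CPM in fed wild-type mice and 1.70 to 15.1 in fed mutants. *Mlx* fell on fasting by 0.63 in wild-type mice (adjusted p = 2.50e-09), and its fasting responses differed by 0.50 (SE 0.096, adjusted p = 0.00256). In fasted mice 5 of the 21 were called between genotypes, all lower in mutants, against 6.63% of all genes called lower, led by *Mid1ip1* (-1.04, adjusted p = 0.00415), *Arrdc4*, a relative of *Txnip* (-0.56, adjusted p = 0.00440) and the kinase gene *Pdk1* (-0.77, adjusted p = 0.00777). For the difference of fasting responses 1 of the 21, *Mlx*, was called higher and 3 lower, against 4.35% of all genes called. Among those lower were *Pdk1* (-1.18, adjusted p = 0.0113) and *Arrdc4* (-0.70, adjusted p = 0.0281). On refeeding 7 were called higher and 3 lower in wild-type mice (16.5% and 13.7% of all genes) and 8 higher and 3 lower in mutants (17.1% and 14.2%). In refed mice no gene of the 4 lists was called between genotypes by edgeR, and 1, 2, 1 and 2 genes of the lists in the order given had an unadjusted p under 0.05.

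Across the 36 mice, the transcripts most like each member were described by Pearson's r of log2 CPM, over points that share groups and library scaling. After *Hcn3*, *Pklr* was most like the transketolase gene *Tkt* (0.948) and the liver glycogen phosphorylase gene *Pygl* (0.947). *Khk* was most like *Tmie* (0.934), *Cyb5r3* (0.891) and *Trpc4ap* (0.890), and *Txnip* most like *Slc25a47* (0.854), *Angptl4* (0.811) and *Serinc1* (0.810). *Gckr* (*Nqo2*, 0.821, *Qdpr*, 0.790, and *Enpep*, 0.779) and *Pfkfb3* (*Gm14420*, 0.885, *Tmcc1*, 0.850, and *Gm14403*, 0.848) had likenesses of similar size. *Mlxipl* (*Slc22a28*, 0.774, *Mup-ps13*, 0.724, and *Adra1b*, 0.720), *Pfkfb1* (*Egfr*, 0.737, *Selenbp2*, 0.727, and *Frmd4b*, 0.724) and *Pfkl* (*Anxa6*, 0.709, *Wdr41*, 0.696, and *Hspa9*, 0.676) were less close to any gene. Among the members themselves *Pklr* and *Khk* were the most alike, with r = 0.877 over all mice and 0.886 after each group's mean was removed. The second value still holds the split of fed mice by mouse number. *Pklr* and *Txnip* had r = -0.313 over all mice and 0.424 within groups, so that the groups moved them apart while mice of 1 group high in *Pklr* tended to be high in *Txnip*. *Pfkl* followed none of the others, with r within groups from -0.465 (*Mlxipl*) to -0.0212 (*Pfkfb1*).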

How the data were processed

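Liver RNA of 36 mice was sequenced by the study (TruSeq Stranded total RNA libraries, single reads). The authors deposited expected counts per gene, estimated counts of which 3.64% of the values above 0 were not whole, and these were rounded. Per the labels Cuffdiff, SAMtools and featureCounts were used and the build was mm9, whereas 16061 of 36341 loci compared (44.2%) equal GENCODE M21 gene ends on GRCm38, so GRCm38 coordinates are given. The strand setting of the counting is not given in the sources used here. A second deposited table of fitted values was not used, since it holds no variation between mice of a group.

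Counts of 13945 genes (filterByExpr) were scaled by TMM and fitted with 1 coefficient per group in edgeR 4.0.16 under R 4.3.3 (quasi-likelihood test, Benjamini-Hochberg adjustment, threshold 0.05). The SE is the size of the log2 fold change divided by the square root of F. CPM were taken after TMM scaling, and log2 CPM with a prior count of 2. The common biological coefficient of variation was 0.181. Replicates are separate mice, and no pair of libraries in a group agreed within sampling noise (in 90 pairs, chi-square divided by its degrees of freedom was at least 7.00). Alternatives were DESeq2 1.42.0, limma-voom (limma 3.58.1), the edgeR likelihood ratio test, other scalings and filters, fits to the groups compared alone, the mouse number range as a covariate, and each mouse left out in turn. The steps were tested on simulated data. The 8 genes are all named. From each list at most the 3 genes with the smallest p of a comparison are named, and for each member the 3 genes with the highest correlation. The members and lists were chosen with earlier results of these data known. The tandem form of the promoter motif was added after seeing the data.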

Additional observations from a re-analysis of the deposited data

Results flagged for a closer look

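*Gckr* in fasted wild-type mice held 1 mouse apart from the others: WT_807 was at 93.5 CPM against 112 to 123 CPM in the other 5, a gap of 0.654 of the group's range in log2 CPM. *Khk* in refed wild-type mice held 1 mouse above the others: WT_900 was at 207 CPM against 179 to 189 CPM, a gap of 0.626 of the range in log2 CPM. These were 2 of the 48 sets of 6 values examined, and chance alone takes about 1 of 20 such sets past Dixon's limit, which was used here.

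The genotypes differed in their response to feeding state for 3 of the 8 genes by the interaction term in edgeR, *Gckr* and *Pfkfb1* for fasting, against 4.35% of all genes tested, and *Pfkl* for refeeding, against 2.06%. The fasting response of *Gckr* was lower in mutants by -0.53 on the log2 scale (SE 0.11, adjusted p = 0.00523). For this gene 6 of 6 fasted mutants lay below all fed mutants (no overlap, as for 1608 of 13945 genes tested). The fasting response of *Pfkfb1* was higher in mutants by 0.79 (SE 0.22, adjusted p = 0.0337), with wild-type fed and fasted mice apart in 6 of 6 (no overlap, as for 17.6% of all genes tested). That call was lost in 10 of the 24 fits that left out 1 mouse, with no filter on low counts (adjusted p = 0.0692) and in a fit to the fed and fasted mice alone (adjusted p = 0.0810). In fasted mice the genotype difference of *Pfkfb1* was 1.04 in the lower mouse number range and -0.21 in the upper. The refeeding response of *Pfkl* was higher in mutants by 0.49 (SE 0.11, adjusted p = 0.0147).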

How the results depend on the processing

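Of the 31 changes called in the 8 genes, each refitted under the other settings, 244 of 257 values stayed past the threshold and 13 were lost; with each mouse left out in turn, 365 of 408 stayed and 43 were lost. No called change turned its direction in these fits. In fasted mice the genotype called 2 genes, and 1 with library size alone (*Pfkfb1* in place of *Khk* and *Pfkl*) or with no filter on low counts (*Pfkl*), and 0 to 3 with 1 mouse left out. A fit to the fasted mice alone also called 2, but *Pklr* and *Khk* in place of *Khk* and *Pfkl*. In fed mice the count of 1 became 0 in a fit to those groups alone. Refeeding in wild-type mice called 6 in place of 3 in that kind of fit. The genotype difference of fasting called 5 with DESeq2, 1 with no filter, 1 in the fit to the groups compared, and 1 to 5 with 1 mouse left out, in place of 2. The cause was not tested. Only values that had not passed changed sign. With limma-voom *Pfkfb3* was at -0.12 for genotype in refed mice and 0.069 for refed against fed mutants. With library size alone, which moves the median of all genes by at most 0.0998, *Mlxipl* was at 0.00313 for genotype in refed mice, *Gckr* at 0.032 (wild-type) and 0.090 (mutant) for refeeding and 0.010 for refed against fed wild-type mice, and *Pfkl* at 0.022 for the last. With no filter *Gckr* was at 0.000746 for refeeding in mutants. With 1 mouse left out, *Gckr* ran from -0.070 to 0.024 (fasting, wild-type), -0.063 to 0.032 (refeeding, mutant) and -0.023 to 0.083 (difference of refeeding), *Mlxipl* from -0.17 to 0.0089 (genotype, refed) and -0.23 to 0.0090 (difference of fasting), *Pfkfb3* from -0.11 to 0.18 (genotype, refed) and -0.28 to 0.33 (refed against fed, mutant), and *Txnip* from -0.22 to 0.091 (refed against fed, wild-type) and -0.11 to 0.20 (difference of fasting). The mouse number range as a covariate changed no call in the comparisons where it was run. These were genotype in fasted and in refed mice, refeeding in each genotype and the difference of refeeding. It was not run for fasting or refed against fed, where feeding state and range cannot be separated. Nor was it run for the difference of fasting, where both genotypes have the same split of ranges. A covariate of this kind also cannot show a difference that changes sign between ranges. No paired analysis was possible because the groups share no replicate numbers. At 8839488 to 19542775 counts per library, *Pfkfb3* in fasted mice rests on the fewest counts of the 8.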
